A study of Homo sapiens with 24 samples.

Results

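The splicing of 10 genes of the BCL2 family was measured in HCT116, a human colorectal carcinoma cell line. The genes were MCL1, BCL2L1 (Bcl-x) and BCL2L2 (Bcl-w), which are anti-apoptotic, BAX and BAK1, the effectors, BCL2L11 (Bim), BID, BAD and BBC3 (PUMA), which are BH3-only, and BCL2L13, which is set apart here. Every listed splice junction or intron boundary on the strand and inside the GRCh37 span of these genes was taken, which gave 1088 of the 1823643 rows kept in the series. Of the 1088 rows, 343 were boundary rows and 745 were spliced junctions. Boundary rows count reads that run unspliced across a splice site, from an exon into the neighbouring intron or, at some sites, within an exon. Rows were assigned to the genes by position only, and the genes were picked with earlier results of these data known.

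The cells were infected with lentivirus to express either wild-type (WT) PHF5A or PHF5A carrying Y36C, on top of the endogenous gene. PHF5A is a subunit of SF3b, the complex that recognises the intron branch point, and E7107, a pladienolide derivative, is a splicing modulator that acts on SF3b. Treatment lasted 6 h and used either DMSO, the solvent control, or E7107. The 4 combinations of line and treatment, named by line and then treatment (for example WT E7107), held 6 samples apiece. The labels do not say whether the 6 samples were separate cultures, so p-values measure only the spread between these samples. The comparisons ask how E7107 altered the splicing of these genes in each line and whether Y36C altered that response.

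BCL2 family proteins decide whether the outer mitochondrial membrane stays closed. Anti-apoptotic members bind and hold the pro-apoptotic ones, the effectors BAX and BAK1 open the membrane, and BH3-only proteins report stress and tip the balance. Several of the genes make opposing products from one transcript. Skipping of MCL1 exon 2 gives MCL1-S, an upstream 5′ splice site in BCL2L1 exon 2 gives Bcl-xS, and both short forms are pro-apoptotic, whereas shortened forms of Bim (BimL and BimS) differ in how strongly they promote death.

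The value of a row is its percent spliced in (PSI), the percentage of reads at one splice site that take that outcome, and the rows of a site sum to 100. A site without reads was treated as missing. The deposited values hold no read counts, so the depth behind a PSI is unknown and no counting interval can be given. Sites with reads numbered 281164 to 283548 per sample in WT E7107, below the 337517 to 340081 of WT DMSO. In Y36C cells the range was 336249 to 338547 for DMSO and 328458 to 331604 for E7107. In bulk samples without read counts, cell number, RNA per cell, transcript levels and sequencing depth cannot be told apart as sources of that lower number. The source was not tested. The epithelial genes EPCAM, CDH1, KRT8, KRT18 and KRT19 had reads at all their reference junction rows in the 12 DMSO samples, with a mean PSI over 50. Of the markers of other cell types, no rows of PTPRC, CD3E, COL1A2 or PECAM1 were listed, and COL1A1, a fibroblast collagen gene, had reads in all 12 DMSO samples at 95 of 96 rows. The files hold no allele counts, so the PHF5A genotype was taken from the labels.

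The sequences below (GRCh37, read 5′ to 3′ on the strand of the gene) are the exons, exon part and splice sites on which the results turn. The first 3 are coding sequence: the MCL1 exon left out of MCL1-S (chr1:150550720-150550967, minus strand), the stretch of BCL2L1 exon 2 left out of Bcl-xS (chr20:30309458-30309646, minus strand), and exon 3 of BCL2L11 (chr2:111907621-111907724, plus strand), which encodes the BH3 region of Bim.
MCL1 exon 2: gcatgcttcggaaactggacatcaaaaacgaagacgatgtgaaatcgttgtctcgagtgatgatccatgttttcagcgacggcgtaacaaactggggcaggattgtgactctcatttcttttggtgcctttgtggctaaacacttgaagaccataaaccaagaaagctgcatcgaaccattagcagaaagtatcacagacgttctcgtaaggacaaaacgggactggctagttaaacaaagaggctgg
BCL2L1 exon 2, part absent from Bcl-xS: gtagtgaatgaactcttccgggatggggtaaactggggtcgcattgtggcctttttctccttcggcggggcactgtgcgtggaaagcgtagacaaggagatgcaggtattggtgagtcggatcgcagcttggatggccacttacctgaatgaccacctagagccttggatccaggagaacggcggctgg
BCL2L11 exon 3: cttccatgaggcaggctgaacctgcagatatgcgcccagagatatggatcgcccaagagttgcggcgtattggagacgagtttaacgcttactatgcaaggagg

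The competing splice sites of BCL2L1 are shown next because their use shifted between groups. The 5′ splice sites of Bcl-xL (chr20:30309452-30309460) and Bcl-xS (chr20:30309641-30309649) lie 189 bases apart, and capitals mark the first 2 intronic bases. The third line (chr20:30310134-30310193) holds the 2 competing 3′ splice sites of exon 2, 18 bases apart and upstream of the start codon, with capitals on the AG of each.
Bcl-xL 5′ splice site: tggGTaaga
Bcl-xS 5′ splice site: cagGTagtg
BCL2L1 exon 2 acceptors: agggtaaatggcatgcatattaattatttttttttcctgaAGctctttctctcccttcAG

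SF3b acts near the 3′ end of the intron, so the last 60 bases are shown for a selection of introns, 6 whose retention separated the groups and then 4 whose 3′ splice site is bypassed by the exon-skipping junctions of BAX, BID and BCL2L13 described here. Each stretch was searched on the strand of the gene for CTNAC, a short form of the branch point consensus, and capitals mark the closing AG and any match. The MCL1 stretches are chr1:150550968-150551027 and chr1:150549968-150550027 on the minus strand.
MCL1 intron 1: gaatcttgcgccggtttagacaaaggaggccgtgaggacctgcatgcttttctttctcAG
MCL1 intron 2: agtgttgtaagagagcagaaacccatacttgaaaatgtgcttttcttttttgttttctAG
BCL2L2 intron 3 (chr14:23777965-23778024, plus strand): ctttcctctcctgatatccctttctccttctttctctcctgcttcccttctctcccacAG
BAX intron 5 (chr19:49464729-49464788, plus strand): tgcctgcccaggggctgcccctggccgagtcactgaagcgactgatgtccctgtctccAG
BAK1 intron 5 (chr6:33541685-33541744, minus strand): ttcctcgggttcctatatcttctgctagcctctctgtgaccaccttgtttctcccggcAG
BCL2L11 intron 1 (chr2:111881250-111881309, plus strand): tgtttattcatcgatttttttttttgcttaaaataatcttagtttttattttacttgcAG
BAX intron 2 (chr19:49458884-49458943, plus strand): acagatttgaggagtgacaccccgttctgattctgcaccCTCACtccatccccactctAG
BID intron 1 (chr22:18232941-18233000, minus strand): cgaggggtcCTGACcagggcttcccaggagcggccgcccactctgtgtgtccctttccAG
BID intron 2 (chr22:18226780-18226839, minus strand): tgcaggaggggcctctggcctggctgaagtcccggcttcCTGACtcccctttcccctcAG
BCL2L13 intron 4 (chr22:18178847-18178906, plus strand): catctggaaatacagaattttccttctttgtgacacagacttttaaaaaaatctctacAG

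CTNAC was in the stretches of BAX intron 2 and BID introns 1 and 2 and in none of the other 7. Across the 37 introns of the 10 reference transcripts, 13 (35.1%) held it in the last 60 bases, against 25% of the 381126 annotated introns of at least 120 bases. All 37 began with GT and ended with AG. Their median GC content was 52.4%, against 43.0% for the annotated introns, and their median length was 2389 bases, against 2274.

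E7107 raised intron boundary PSI across the family in WT cells and at far fewer boundaries in Y36C cells. In WT cells, 35 of the 48 boundary rows tested rose and 0 fell, where 70.8% of all boundary rows tested in the series rose and 5.78% fell. In Y36C cells, 10 of 46 rose and 1 fell, where 26.8% of all tested rows rose and 1.26% fell. The median change of the tested member rows was 10.7 points in WT cells and 2.20 points in Y36C cells, against 11.2 and 2.02 points over all tested rows. The share of member rows raised was thus near that of the whole series. Reference intron boundaries made up 33 of the 35 raised rows in WT cells and 8 of the 10 in Y36C cells. Among the others was the downstream acceptor of BCL2L1 exon 2, which lies within annotated exon sequence. Boundary PSI there rose from 60.1% to 90.6% on average in WT cells and from 61.1% to 79.9% in Y36C cells. Rows were tested where all 12 samples had reads and all 6 samples of at least 1 group were above 0, so most of the 343 boundary rows were not tested. Of the 48 rows tested in WT cells, 18 passed this filter only through WT E7107, since at least 1 WT DMSO sample was at 0, and 17 of the 35 raised rows were among them. In Y36C cells 10 rows passed only through Y36C E7107, and 1 of them was raised. Without the filter, 34 of 67 member rows rose in WT cells, against 43.0% of all rows, and 7 of 87 rose in Y36C cells, against 8.76%.

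The difference of the E7107 effects between genotypes was tested over the 24 samples. The effect was smaller (less positive) in Y36C cells at 28 of 50 boundary rows and larger at 4, against 54.9% and 8.94% of all rows. Under E7107 itself, 31 of 48 rows were lower in Y36C than in WT cells and 6 were higher, against 62.9% and 11.7%. In DMSO, no member row passed the test between genotypes. That was 0 of 49 boundary rows and 0 of 157 spliced rows by limma, where 0.166% and 0.097% of all rows were called, while 8 and 15 member rows had an unadjusted p under 0.05. Every other setting also called 0, and the lowest adjusted p over all settings was 0.0519.

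**Figure D1:**
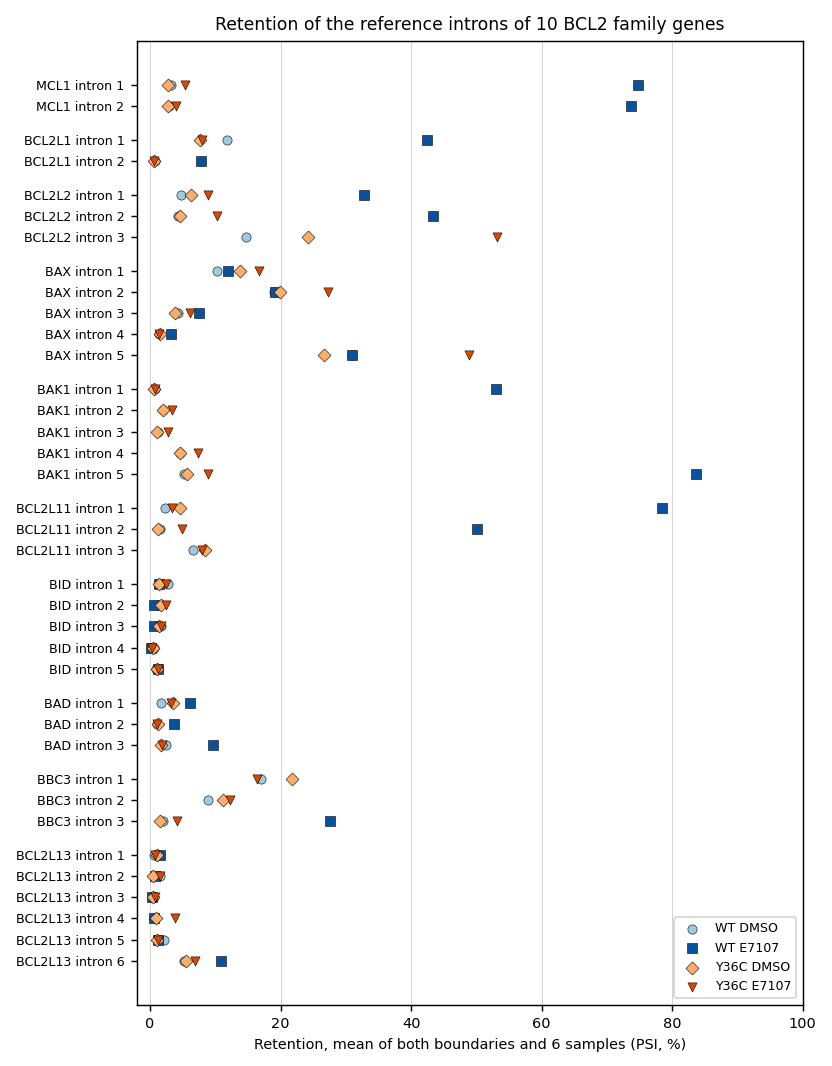
Retention of each of the 37 reference introns (vertical axis) as mean PSI of its 2 boundaries over 6 samples (horizontal axis, %), with 1 marker for each of the 4 groups, absent where a sample lacked reads. Dark blue squares (WT E7107) stand far right of the other groups for both MCL1 introns (74.8% and 73.7%), BAK1 intron 5 and BCL2L11 intron 1, whereas at BAX intron 5 the Y36C E7107 marker (48.9%) stands alone.

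The response differed widely between introns of the family. Of the 30 reference introns with reads at both boundaries in all WT samples, mean retention was over 25 points higher with E7107 at 10 and within 2 points of DMSO at 14. In Y36C cells it was over 10 points higher at only 2 of the 37, BCL2L2 intron 3 and BAX intron 5, and within 4 points at 32. At some boundaries the intronic side is exonic in another annotated transcript of the gene, so PSI there may not measure retention alone. These include every MCL1 boundary, both boundaries of BCL2L2 intron 3 and BAX intron 5, and the 3′ boundary of BBC3 intron 3.

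MCL1, whose short-lived protein holds BAK1 in check, kept both of its introns in WT E7107 cells. Intron 1 is 351 bases long with 51.3% GC, and intron 2 is 752 bases long with 37.8% GC. At the 3′ boundary of intron 1, PSI was 2.09, 3.18 and 5.59% (lowest, median and highest of 6 samples, the order used throughout) in WT DMSO and 88.4, 89.9 and 90.6% in WT E7107. In Y36C cells it was 1.59, 2.94 and 3.72% in DMSO and 3.42, 5.68 and 7.67% with E7107. Unspliced reads were thus the main outcome in every WT E7107 sample and the minor one in every other sample. The rise in WT cells was 5.21 ± 0.146 (SE) on the natural-log odds scale, with an adjusted p of 1.22e-10. In Y36C cells it was 0.545 ± 0.152, with an adjusted p of 0.0213, and the 2 effects differed with an adjusted p of 1.82e-14.

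Intron 2 of MCL1 was retained in WT cells as well. Its 5′ boundary was 1.34, 2.64 and 6.09% in WT DMSO and 86.5, 88.5 and 90.1% in WT E7107, with an adjusted p of 3.04e-10. In Y36C cells the values were 1.42, 2.39 and 4.35% in DMSO and 2.30, 3.53 and 6.68% with E7107, which overlapped and did not pass the test (adjusted p = 0.251). The 5′ boundary of intron 1 averaged 59.9% and the 3′ boundary of intron 2 averaged 58.9% in WT E7107, and these are the 2 sites that MCL1-S also uses.

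The MCL1-S junction (chr1:150549968-150551318) joins exon 1 to exon 3 and leaves out exon 2, 248 coding bases, 2 over a multiple of 3. At the 3′ splice site of exon 3 it took 0.264, 1.17 and 1.83% of reads in WT DMSO and 28, 32.7 and 37.04% in WT E7107. In Y36C DMSO it took 0.283, 0.694 and 1.76%, and in Y36C E7107 1.62, 2.85 and 3.89%. The WT groups were fully separated, and the Y36C groups overlapped narrowly. MCL1-S rose by 3.21 ± 0.176 log odds in WT cells (adjusted p = 1.06e-08) and by 0.786 ± 0.173 in Y36C cells (adjusted p = 0.00598), and the effects differed (adjusted p = 1.41e-08). The junction of exon 2 to exon 3, which makes MCL1-L, averaged 96.2% of reads at the same site in untreated and 8.58% in treated WT cells. In Y36C cells it averaged 96.5% and 93.5%. The small rise of the intron 1 boundaries in Y36C cells depended on the setting. Its adjusted p ranged over the alternatives from 0.0108 to 0.104 at the 5′ boundary, 0.0453 as reported, and from 0.00655 to 0.0844 at the 3′ boundary.

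**Figure D2:**
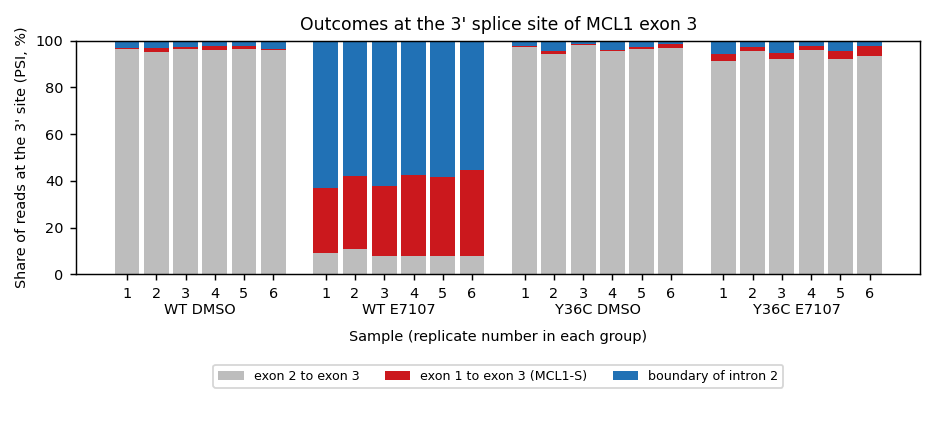
Stacked bars, 1 for each of the 24 samples, divide the reads at the 3′ splice site of MCL1 exon 3 (vertical axis, PSI in %) into exon 2 to exon 3 (grey), exon 1 to exon 3 (MCL1-S, red) and the intron 2 boundary (blue). In all 6 WT E7107 samples blue and red make up most of the bar, 58.9% and 32.5% on average, and in the other 18 samples grey does.

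BCL2L1 encodes the anti-apoptotic Bcl-xL, which sits on mitochondria, and the opposing Bcl-xS. The 3′ boundary of its intron 1, at the upstream acceptor of exon 2, was 18.6, 24.4 and 26.9% in WT DMSO and 70.9, 72.0 and 72.9% in WT E7107. It was 12.5, 15.1 and 18.6% in Y36C DMSO and 11.6, 14.7 and 18.7% in Y36C E7107. Only the WT E7107 samples stood apart, by 2.10 ± 0.119 log odds in WT cells (adjusted p = 1.42e-08), and the effects differed between genotypes (adjusted p = 1.86e-10). The 2 ends of intron 1 were unequal. Its 5′ boundary averaged only 0.101% in WT DMSO and 12.7% in WT E7107, and 0.299% and 0.699% in the Y36C groups. As at the boundaries named above, the intronic side of the 3′ boundary is exonic in other annotated BCL2L1 transcripts. Its PSI is thus not a measure of retention alone. Intron 2, 55568 bases long, had mean retention of 0.816% in WT DMSO and 7.74% in WT E7107.

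The pro-apoptotic Bcl-xS stayed a minor product in every group. Its junction took 1.74, 3.44 and 4.12% of reads at the 3′ splice site of exon 3 in WT DMSO and 1.40, 1.94 and 2.39% in WT E7107. In Y36C cells it took 3.15, 4.08 and 6.58% in DMSO and 5.09, 5.49 and 7.83% with E7107. Neither change passed the test (adjusted p = 0.0564 in WT and 0.162 in Y36C cells), although the lower value in WT cells did when all 24 samples shared 1 fit (adjusted p = 0.0235, and 0.0235 to 0.149 over the alternatives). The 2 changes went in opposite directions and differed by 0.643 ± 0.186 log odds (adjusted p = 0.00622). Bcl-xL took 91.97% of these reads on average in WT DMSO and 85.1% in WT E7107, a fall with an adjusted p of 0.00272, and 91.4% and 89.7% in the Y36C groups (adjusted p = 0.392).

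The use of the 2 acceptors of BCL2L1 exon 2 shifted in both genotypes. From the 5′ splice site of exon 1, the upstream acceptor took 46.9, 51.5 and 54.2% of reads in WT DMSO and 56.9, 61.6 and 63.9% in WT E7107. It took 47.99, 54.8 and 62.7% in Y36C DMSO and 72.1, 74.1 and 75.99% in Y36C E7107. E7107 samples were higher than every DMSO sample in both lines, with an adjusted p of 0.0074 for the WT line and 0.000395 for the Y36C line. The rise was larger in Y36C cells (adjusted p = 0.0112), a call that was lost with an offset of 0.1 point (adjusted p = 0.0695, and 0.00315 to 0.0695 over the alternatives). The downstream acceptor fell from a mean of 48.7% to 26.3% in WT cells (adjusted p = 2.25e-05) and from 44.5% to 25.2% in Y36C cells (adjusted p = 0.000281). An unannotated junction into the same downstream acceptor, from chr20:30310219, was among the called unannotated junctions with the greatest change. At the acceptor it fell in both lines, from 3.75% to 0.0772% on average in WT cells and from 3.45% to 1.23% in Y36C cells (adjusted p = 3.5e-06 and 0.00317).

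In BCL2L2, which encodes the anti-apoptotic Bcl-w, retention of intron 3 rose in both lines. The 5′ boundary of intron 3 (616 bases, 55.4% GC) was 1.54, 15.2 and 22.5% in WT DMSO and 42.9, 45.8 and 70% in WT E7107. It was 9.43, 13.4 and 26.5% in Y36C DMSO and 33.3, 41.8 and 58.1% in Y36C E7107. The treated samples lay above all untreated ones in each line. The rise was 2.13 ± 0.4 log odds in WT cells (adjusted p = 0.000507) and 1.44 ± 0.232 in Y36C cells (adjusted p = 0.00086), and a difference between these effects was not detected (-0.691 ± 0.472, adjusted p = 0.242). The junction of exon 3 to exon 4, which completes the Bcl-w reading frame, fell from 64% to 6.16% on average in WT cells and from 56.01% to 21.8% in Y36C cells, and the fall was larger in WT cells (adjusted p = 0.00173). At its other end, the 3′ boundary of intron 3 was 10, 17.0 and 26.3% in WT DMSO and 27.3, 32.4 and 43.3% in Y36C DMSO. These untreated groups did not overlap, and the difference did not pass the test (adjusted p = 0.133). With E7107 the boundary stood at 50, 60.5 and 83.3% in Y36C cells, a rise (adjusted p = 0.00307), and at 66.7 to 95.8% in the 5 WT samples with reads, which left WT cells untested. Introns 1 and 2 rose to a mean retention of 32.7% and 43.3% in WT E7107, and stood at 8.90% and 10.3% in Y36C E7107.

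The 5′ splice site of BCL2L2 exon 3 also feeds an annotated readthrough transcript that joins BCL2L2 to PABPN1, the next gene downstream. That junction (chr14:23777409-23788943) averaged 13.96% in WT DMSO and 31.4% in WT E7107 and rose (adjusted p = 0.0237). It averaged 17.2% and 21.6% in the Y36C groups (adjusted p = 0.423), and the effects did not differ detectably (adjusted p = 0.189). A second readthrough junction, ending at 23791389, rose in Y36C cells from 2.47% to 10.3% on average (adjusted p = 0.0145). It was tested there only through Y36C E7107, because Y36C DMSO held samples at 0.

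Of the effectors, BAX had its larger boundary changes in Y36C cells. Retention of intron 5 (chr19:49464172-49464788, 617 bases, 59.2% GC), the last intron, which precedes the exon for the membrane anchor, was already high in DMSO. Its 3′ boundary was 32.4, 35.2 and 37.8% in WT DMSO and 32.7, 34.0 and 38.1% in WT E7107. It was 24.5, 30.7 and 32.6% in Y36C DMSO and 50, 53.7 and 61.0% in Y36C E7107. The Y36C E7107 samples were above the other 18, and the WT groups overlapped. The rise in Y36C cells was 1.00 ± 0.122 log odds (adjusted p = 0.000128), the change in WT cells was -0.0162 ± 0.105 (adjusted p = 0.91), and the effects differed (adjusted p = 1.53e-06). The 5′ boundary gave the same picture, with 40.5, 43.1 and 51.5% in Y36C E7107 and means from 23.7 to 27.3% in the other groups.

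BAX exon skipping also rose in Y36C cells. The junction of exon 1 to exon 4, which leaves out exons 2 and 3 (52 and 147 bases), took 4, 5.75 and 7.41% of reads at the 5′ splice site of exon 1 in WT DMSO and 3.97, 7.57 and 12.4% in WT E7107. It took 4.49, 8.32 and 9.02% in Y36C DMSO and 11.6, 16.8 and 22.3% in Y36C E7107. The Y36C groups did not overlap (adjusted p = 0.00435), and the difference between genotypes did not pass the test (adjusted p = 0.0982, and 0.0181 to 0.169 over the alternatives). The junction of exon 1 to exon 2 fell from 80.8% to 66.3% in Y36C cells (adjusted p = 0.00321) and stood at 83.6% and 84% in the WT groups. Skipping of exon 3 alone, exon 2 to exon 4, was 9.35% and 13.04% in the Y36C groups (adjusted p = 0.197). In all, 3 of 12 BAX boundary rows rose in WT cells and 3 of 13 in Y36C cells, where 70.8% and 26.8% of all boundary rows did. The rises in WT cells were small. On average the 5′ boundary of intron 3 went from 2.99% to 5.70% (adjusted p = 0.0208) and its 3′ boundary from 5.63% to 9.39% (adjusted p = 0.0173). The 5′ boundary of intron 4 went from 1.52% to 5.30% (adjusted p = 0.000517), and the effect there was smaller in Y36C cells (adjusted p = 0.00127).

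BAK1, the other effector, was retained in WT cells. The 3′ boundary of its intron 5, 126 bases long, was 2.70, 4.95 and 11.2% in WT DMSO and 72.7, 85.9 and 95% in WT E7107. It was 1.16, 5.08 and 7.23% in Y36C DMSO and 4, 7.01 and 10.5% in Y36C E7107. WT E7107 samples stood far above the other 18 (4.58 ± 0.325 log odds in WT cells, adjusted p = 9.53e-08), and no rise was detected in Y36C cells (adjusted p = 0.207). All 5 BAK1 boundary rows tested in WT cells rose, 3 of them tested only through WT E7107 because a WT DMSO sample was at 0, and 0 of 6 were called in Y36C cells. Without the filter on low values, 5 of 5 rose in WT cells and 0 of 10 in Y36C cells. Of the 10 reference boundaries, 5 lacked reads in at least 1 WT E7107 sample and were left untested there. An unannotated junction that skips exon 5 (181 bases) rose in Y36C cells from 0.181% to 3.05% on average (adjusted p = 0.00195). Its median in Y36C DMSO was 0%, so it was tested only through Y36C E7107, where it ranged from 1.16 to 5.97%. In WT DMSO, untreated samples ranged from 0 to 2.94% and so reached into that range. The call thus rests on low values. At the 5′ splice site of this junction 3 WT E7107 samples had reads, and the junction was at 0% in each.

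**Figure D3:**
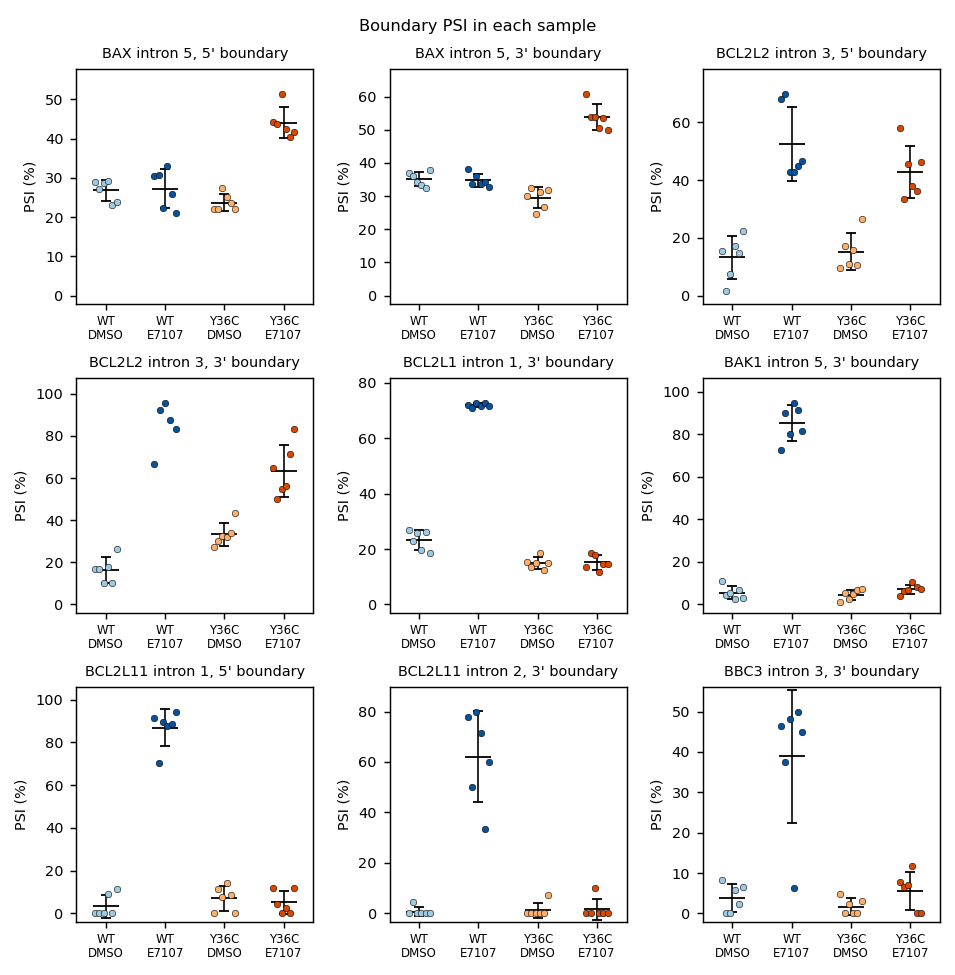
Boundary PSI (vertical axes, %) in each of the 24 samples (points) for 9 intron boundaries, with the mean and SD of 6 samples as bars where all 6 had reads. The WT E7107 points stand alone at BCL2L1 intron 1, BAK1 intron 5 and BCL2L11 introns 1 and 2, the Y36C E7107 points stand alone at BAX intron 5, and both treated groups are raised at BCL2L2 intron 3.

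BCL2L11 encodes Bim, a BH3-only protein that binds every anti-apoptotic member. The 5′ boundary of intron 1 was 0, 0 and 11.5% in WT DMSO and 70.5, 89.0 and 94.4% in WT E7107, a rise of 5.72 ± 0.548 log odds (adjusted p = 1.43e-06). It was 0, 8.26 and 14.3% in Y36C DMSO and 0, 3.53 and 12% in Y36C E7107, which overlapped throughout. The 3′ boundary of intron 2 rose likewise in WT cells, from a mean of 0.758% to 62.1% (adjusted p = 4.34e-07), with means of 1.19% and 1.67% in the Y36C groups. All 5 BCL2L11 boundary rows tested in WT cells rose. Of these, 4, both described rows included, were tested only through WT E7107 because a WT DMSO sample was at 0. Without the filter on low values, 5 of 5 rose in WT cells and 0 of 7 in Y36C cells. Sites of BCL2L11 with reads in all 6 samples fell in number from 10 of 29 in both DMSO groups to 5 in WT E7107 and 7 in Y36C E7107.

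Bim isoforms changed as well. An unannotated junction from exon 2 to exon 4, which leaves out the 104 bases of exon 3 shown above, took 3.70, 7.74 and 14.3% of reads at the 3′ splice site of exon 4 in WT DMSO and 33.3, 50.6 and 75% in WT E7107. It took 0, 11.8 and 16% in Y36C DMSO and 7.14, 23.1 and 35.7% in Y36C E7107. The WT groups were fully separated (2.49 ± 0.339 log odds, adjusted p = 3.55e-05), and the Y36C groups overlapped (adjusted p = 0.151). Read at the 5′ splice site of exon 2, the same junction rose in both lines, from 8.56% to 46.4% in WT (adjusted p = 2.62e-05) and from 6.99% to 19.7% in Y36C cells (adjusted p = 0.0456). The effects did not differ detectably at either site (adjusted p = 0.0594 and 0.162), and the first of these passed when PSI itself was fitted (adjusted p = 0.00132, and 0.00132 to 0.336 over the alternatives).

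BimEL, BimL and BimS differ in how much of exon 2 they keep. BimEL and BimL both join the end of exon 2 to exon 3, and BimL also removes 180 bases within exon 2. That shared junction, which counts both forms, averaged 80.2% at the 3′ splice site of exon 3 in WT DMSO and 36.2% in WT E7107 (adjusted p = 0.00214), and 83.7% and 79.2% in the Y36C groups (adjusted p = 0.429). The BimS junction, which removes the last 270 bases of exon 2, took 3.45, 13.1 and 18.4% in WT DMSO and 0, 0 and 10% in WT E7107. It fell in WT cells (adjusted p = 0.00116), while the Y36C groups, at 10.8% and 13.5% on average, overlapped (adjusted p = 0.85), and the effects differed (adjusted p = 0.0025). In WT cells the BimS row was tested only through WT DMSO, since WT E7107 held samples at 0. The junction inside exon 2 that marks BimL averaged 20% in Y36C DMSO and 7.50% in Y36C E7107 at its 5′ splice site (adjusted p = 0.0593) and was not tested in WT cells.

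BID, which caspase-8 cleaves to an active fragment, had little retention in any group. The mean retention of its 5 introns did not exceed 2.82% in any group. Its spliced rows changed in both lines. In WT cells 4 of 14 tested rows rose and 2 fell, where 7.35% and 39.8% of all spliced rows in the series did, and in Y36C cells 3 of 18 rose and 2 fell, where 7.08% and 14.9% did. The junction of exon 1 to exon 4 leaves out exon 2, which holds the start codon, and exon 3. At the 5′ splice site of exon 1 it took 14.1, 21.4 and 27.5% in WT DMSO and 23.5, 25.8 and 30.1% in WT E7107. It took 17.4, 24.1 and 29.4% in Y36C DMSO and 37.6, 41.5 and 45.9% in Y36C E7107. The Y36C E7107 samples were above the other 18. Skipping rose by 0.847 ± 0.131 log odds in Y36C cells (adjusted p = 0.000675) while the WT change of 0.276 ± 0.145 did not pass (adjusted p = 0.129), and the effects differed (adjusted p = 0.0114).

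The other BID junctions from exon 1 also changed. Exon 1 to exon 2 fell from 68.9% to 45.9% on average in Y36C cells (adjusted p = 0.000298) and was 69.4% and 69.7% in the WT groups (adjusted p = 0.977). Exon 1 to exon 3, which leaves out exon 2 alone, averaged 6.38% in WT DMSO and 0.868% in WT E7107, a fall (adjusted p = 0.000236). That junction was tested in WT cells only through WT DMSO, because WT E7107 held samples at 0. In the Y36C groups it averaged 6.29% and 10.2% (adjusted p = 0.185), so the 2 lines moved apart (adjusted p of the difference = 6.85e-05). At the 3′ splice site of exon 3 the Y36C rise of this junction, to 13.8%, did pass (adjusted p = 0.0435). Most other reads of that site joined exon 2 to exon 3, which rose in WT cells from 92.6% to 98.6% on average (adjusted p = 0.000401). Exon 1 to exon 2, read at the 3′ splice site of exon 2, rose in WT cells from 94.98% to 98.6% (adjusted p = 0.0189). The other 2 rows raised in WT cells, exon 3 to exon 4 and exon 4 to exon 5, began above 98% and rose by under 2 points.

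BAD, which binds Bcl-xL when dephosphorylated, had small changes. The 3′ boundary of intron 3 was 0, 2.88 and 5.74% in WT DMSO and 7.96, 12.3 and 16.7% in WT E7107, which did not overlap (adjusted p = 0.00124). It averaged 2.11% and 2.77% in the Y36C groups. The other 4 boundary rows tested in WT cells were also called and ended between 3.49% and 11.3% on average. All 5 had at least 1 WT DMSO sample at 0 and were tested only through WT E7107, and without the filter 3 of 6 rose. In Y36C cells 0 of 1 tested row was called with the filter and 0 of 6 without it.

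BBC3 encodes PUMA, a p53 target that binds all anti-apoptotic members. The 3′ boundary of its intron 3 was 0, 4.08 and 8.33% in WT DMSO and 6.25, 45.7 and 50% in WT E7107, which overlapped by 1 low sample (adjusted p = 0.000795). This boundary was the 1 BBC3 boundary row tested in WT cells, and only through WT E7107, because a WT DMSO sample was at 0. It was 0, 1.19 and 4.88% in Y36C DMSO and 0, 6.82 and 11.8% in Y36C E7107. The effects differed (adjusted p = 0.0466), a call lost with an offset of 0.1 point and without the filter (adjusted p = 0.217 and 0.0955, and 0.000774 to 0.217 over the alternatives). The 3′ boundary of intron 1 was the member boundary that fell in Y36C cells, from 22.2, 42.1 and 56.3% to 7.69, 20 and 26.1% (adjusted p = 0.0176), and 1 WT E7107 sample had reads there. BBC3 sites with reads in all 6 samples numbered 7 of 14 in 3 groups and 2 in WT E7107.

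BCL2L13, a mitochondrial outer membrane protein also known as a mitophagy receptor, showed exon skipping in Y36C cells. There 6 of 26 tested spliced rows rose and 4 fell, where 7.08% and 14.9% of all spliced rows in the series did. In WT cells 0 of 24 rose and 1 fell, where 7.35% and 39.8% did. The highest mean retention of its 6 introns was 10.9%, at intron 6 in WT E7107, and in the other groups none exceeded 6.84%. That mean joins 2 unequal ends. The 5′ boundary of intron 6, the boundary tested in WT cells, was 7.84, 9.39 and 14.7% in WT DMSO and 11.1, 19.1 and 40% in WT E7107, a rise (adjusted p = 0.0168) with overlapping groups, and averaged 10.9% and 12.6% in the Y36C groups (adjusted p = 0.693). The junction of exon 3 to exon 6, which leaves out exons 4 and 5 (157 and 70 bases), took 1.82, 3.85 and 6.12% of reads at the 3′ splice site of exon 6 in WT DMSO and 0, 0 and 5.56% in WT E7107. It took 1.79, 6.95 and 17.7% in Y36C DMSO and 15.8, 23.03 and 26.7% in Y36C E7107. It rose in Y36C cells by 1.37 ± 0.36 log odds (adjusted p = 0.0159, and 0.00633 to 0.055 over the alternatives), with an adjusted p of 0.0667 for the lower value in WT cells and 0.00138 for the difference. Exon 4 to exon 6 and exon 4 to exon 7 also rose in Y36C cells, from 7.68% to 15.01% and from 2.98% to 11.5% (adjusted p = 0.0115 and 0.00843, the latter 0.0502 with an offset of 0.1 point and 0.0081 to 0.0502 over the alternatives). Exon 4 to exon 7 was tested in Y36C cells only through Y36C E7107, because a Y36C DMSO sample was at 0. The inclusion junction, exon 5 to exon 6, fell from 80% to 54.3% in Y36C cells (adjusted p = 0.00045) and averaged 78.6% and 83.2% in the WT groups (adjusted p = 0.313).

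**Figure D4:**
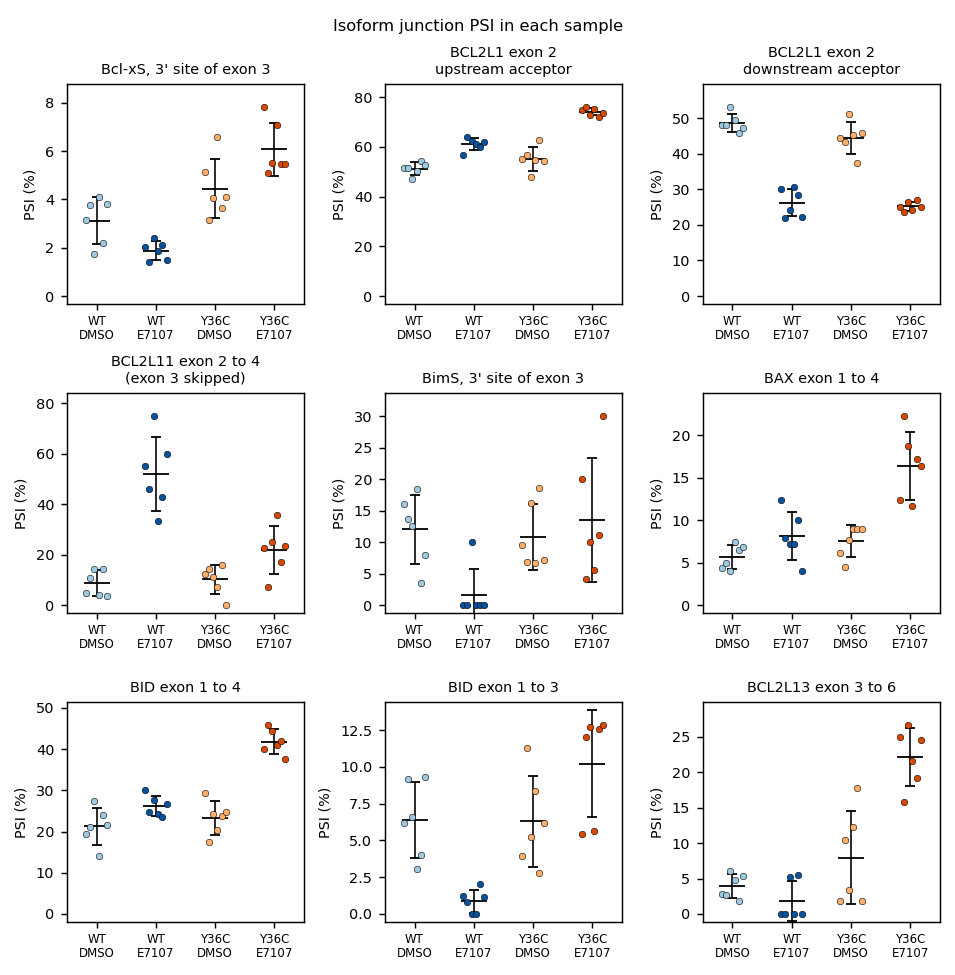
PSI of 9 isoform junctions (vertical axes, %) in each of the 24 samples (points), with the mean and SD of 6 samples as bars. The Y36C E7107 samples are above the other groups for BID exon 1 to exon 4 (37.6 to 45.9%), the WT E7107 samples are highest on average for BCL2L11 exon 2 to exon 4 (52.1%), and both treated groups are below DMSO for the downstream acceptor of BCL2L1 exon 2.

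Counted over all member junctions, spliced rows changed in both lines. In WT cells 10 of 119 tested rows rose and 49 fell, against the 7.35% and 39.8% of all spliced rows given above. In Y36C cells 19 of 151 rose and 28 fell, against 7.08% and 14.9%. The effects differed at 65 of 130 rows, against 41.7% of all rows. The filter on low values was the same, and some called spliced rows passed it only through the group where they were higher. How many did so was not counted. Most reference junctions share a site with a boundary row, so a fall there and a rise in retention are the same reads counted as shares of 1 site.

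By role, 15 of 17 tested boundary rows of the anti-apoptotic genes rose in WT cells and 7 of 19 in Y36C cells, or 88.2% and 36.8%, where 70.8% and 26.8% of all boundary rows rose. For the pro-apoptotic genes, 19 of 30 (63.3%) rose in WT cells, and 3 of 26 (11.5%) rose and 1 fell in Y36C cells. Of the raised rows in WT cells, 4 of the 15 and 13 of the 19 had passed the filter only through WT E7107. All 3 pro-apoptotic rows that rose in Y36C cells were in BAX. The anti-apoptotic counts include the boundary row at the downstream acceptor of BCL2L1 exon 2, raised in both lines. These counts describe the rows and were not tested against each other.

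**Figure D5:**
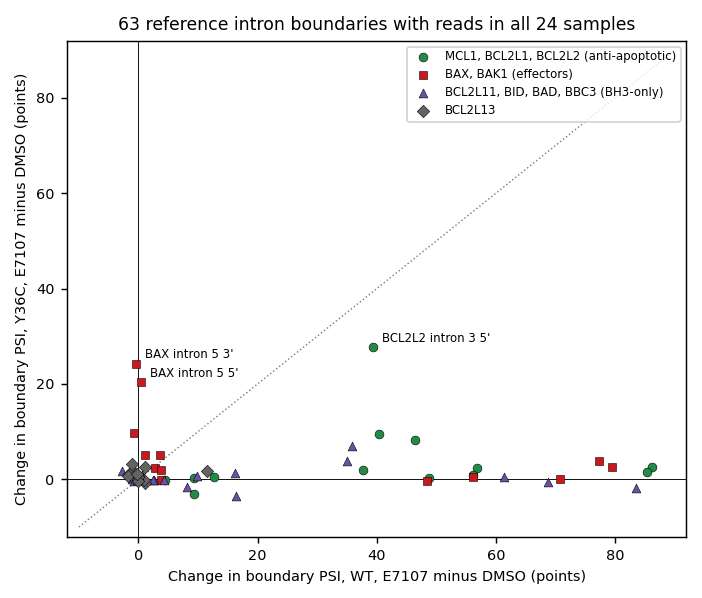
Change in boundary PSI with E7107 in WT cells (horizontal axis, points) against that in Y36C cells (vertical axis, points) for the 63 reference intron boundaries with reads in all 24 samples, coloured by role, with a dotted line where the changes are equal. In WT cells 19 boundaries lie more than 25 points above 0, and in Y36C cells the 3 more than 15 points above 0 are both BAX intron 5 boundaries and the 5′ boundary of BCL2L2 intron 3.

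The rest of the pathway gave a mixed picture. Among the other BCL2 family genes, 32 of 68 boundary rows rose and 8 fell in WT cells, and 18 of 70 rose in Y36C cells, or 47.1% and 25.7% raised, against the same 70.8% and 26.8%. BECN1, the autophagy protein Beclin 1, held all 8 that fell, and it and BCL2L12 had the most called rows in Y36C cells, 6 of 24 and 8 of 13. In WT cells the most were in BECN1, with 4 raised and 8 lowered of 18, and in BNIP3L, a mitophagy receptor, with 9 raised of 9. Of the genes for mitochondrial outer membrane and apoptosome proteins, 95 of 135 rows (70.4%) rose in WT cells and 11 of 100 (11%) in Y36C cells. VDAC2, a channel of the outer membrane, had 19 of 20 raised in WT cells, and HTRA2, a mitochondrial protease, 14 of 14. In Y36C cells VDAC2 and DNM1L, which drives mitochondrial fission, had 3 raised each, of 12 and 22.

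Several members overlap other genes, and the strandedness of the libraries was not given in the sources used here, so reads of overlapping genes cannot be told apart. Antisense genes cross BCL2L1 (ABALON and BCL2L1-AS1), BAK1 (GGNBP1), BCL2L11 (MIR4435-2HG), BAD (GPR137) and MCL1 (ADAMTSL4 and an unnamed gene). Others cross BCL2L2 (HOMEZ and PPP1R3E), BBC3 (MIR3191) and BCL2L13 (snoU13). On the same strand, ADAMTSL4-AS1, RN7SL473P and RN7SL600P overlap MCL1, and MIR3198-1 overlaps BID. The readthrough gene BCL2L2-PABPN1 shares exons with BCL2L2. Their part in these results was not tested.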

How the data were processed

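PolyA RNA from 24 samples was sequenced by the study. The authors aligned reads to hg19 with STAR and computed PSI from its junction counts. The deposited values are this PSI in percent, without counts, so depth is unknown. Dose was not in the labels. Of 1830076 rows, 6433 were mitochondrial or had no strand and were left out. Coordinates were converted to 1-based GRCh37 introns, and sequences came from GRCh37.

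PSI was fitted as natural-log odds with an offset of 1 percentage point by limma 3.58.1 (R 4.3.3), per comparison over 12 samples and over 24 for the interaction. Tests were two-sided, adjusted by Benjamini-Hochberg over all tested rows, with calls up to an adjusted p of 0.05. The fit was tested on simulated data. These were modelled on rows above 0 in all 6 WT DMSO samples, so rows with a DMSO sample at 0 were not examined. Changes are E7107 minus DMSO, errors SE or SD as named, n = 6 per group.

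Reference introns were those of 1 principal transcript per gene. For BID and BCL2L13 the MANE Select transcript was used instead, chosen after the data were seen. Annotated isoform junctions reaching a mean PSI of 5 were described, plus the called unannotated junctions that changed most. Alternatives were PSI as response, another offset, no filter, a minimum change, 1 fit of all samples and a replicate block. Members and lists were chosen with earlier results of these data known.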

Additional observations from a re-analysis of the deposited data

Results flagged for a closer look

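At 32 of the 37 described junctions and boundaries that could be tested, the E7107 effect differed between the lines by the interaction test (limma, all 24 samples). Over all rows of the series it was smaller in Y36C cells at 54.9% of boundary rows and larger at 8.94%, and it differed at 41.7% of spliced rows. The described rows were picked, and some are shares of 1 site, so their count is not a rate for these genes. The value given is how far the Y36C change exceeded the WT change, in PSI points, and is negative where it was lower. For MCL1 it was -29.4 for MCL1-S, 83.6 for exon 1 to exon 2 and 84.0 for exon 2 to exon 3. At the MCL1 boundaries it was -54.4 (intron 1, 5′), -83.6 (intron 1, 3′), -84.0 (intron 2, 5′) and -55.2 (intron 2, 3′). For BCL2L1 it was 2.87 for Bcl-xS, 5.18 for Bcl-xL, 9.16 for the upstream acceptor of exon 2 and -48.5 at the 3′ boundary of intron 1. The Bcl-xL call was lost with an offset of 0.1 point (adjusted p = 0.0893, and 0.0137 to 0.0893 over the alternatives).

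For BCL2L2 the difference was 23.6 for exon 3 to exon 4 and -30.9 at the 5′ boundary of intron 2, and the latter call was lost with an offset of 0.1 point (adjusted p = 0.1, and 0.000198 to 0.1 over the alternatives). For BAX it was 7.11 for exon 1 to exon 3, -24.4 for exon 5 to exon 6, and 19.9 and 24.6 at the 5′ and 3′ boundaries of intron 5. The exon 1 to exon 3 call was lost with an offset of 0.1 point and without the filter (adjusted p = 0.0638 and 0.0637, and 0.0124 to 0.0638 over the alternatives). For BAK1 it was 73.2 for exon 5 to exon 6, and -73.4 and -77.0 at the 5′ and 3′ boundaries of intron 5.

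For BCL2L11 the difference was 39.5 for exon 2 to exon 3, a junction of both BimEL and BimL, 12.99 for BimS, -85.4 at the 5′ boundary of intron 1 and -60.9 at the 3′ boundary of intron 2. For BID it was 13.6 for exon 1 to exon 4, 9.43 for exon 1 to exon 3 and -23.4 for exon 1 to exon 2. For BCL2L13 it was 16.3 for exon 3 to exon 6, 7.97 for exon 4 to exon 6, 9.84 for exon 4 to exon 7 and -30.4 for exon 5 to exon 6. The exon 4 to exon 7 call was lost with an offset of 0.1 point (adjusted p = 0.0695, and 0.00514 to 0.0695 over the alternatives). That row passed the filter only through Y36C E7107, the group where it was highest. For BBC3 it was -31.2 at the 3′ boundary of intron 3.

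In 13 of 160 groups of 6 samples, 1 sample stood far from the other 5. Chance does this in about 1 of 20 groups of independent, normally spread values. That rate does not hold here, since some rows are shares of 1 site and some groups were at 0 in the other 5 samples. In WT DMSO these were 93.9% for MCL1 exon 2 to exon 3 and 6.09% at the 5′ boundary of MCL1 intron 2, which are shares of 1 site, 7.14% for BimL and 4.55% at the 3′ boundary of BCL2L11 intron 2. In WT E7107 they were 10% for BimS, 70.5% at the 5′ boundary of BCL2L11 intron 1 and 6.25% at the 3′ boundary of BBC3 intron 3. In Y36C DMSO they were 1.09% for BAK1 exon 4 to exon 6 and 7.14% at the 3′ boundary of BCL2L11 intron 2. In Y36C E7107 they were 39.05% for BAX exon 5 to exon 6, 51.5% and 60.95% at the 5′ and 3′ boundaries of BAX intron 5, and 10% at the 3′ boundary of BCL2L11 intron 2.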

How the results depend on the processing

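No called result reversed its direction under any alternative, and the directions of results that were not called were not compared. A minimum change of 10 percentage points reduced the boundary rows raised in Y36C cells from 10 to 6, the spliced rows changed in WT cells from 59 to 33, and those changed in Y36C cells from 47 to 27, since small called changes are then left out. The count of boundary rows raised in WT cells was 35, and 32 to 36 under the alternatives. Of 25 isoform junctions, 21 differed between groups by at least 1 test, and 15 to 21 under the alternatives.

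Same-numbered samples did not deviate together. Their mean correlation was 0.000519 over 36 pairs, against -0.000104 over 180 pairs with different numbers, and the same-numbered pairs ranged from -0.00548 to 0.00586, so the numbers mark no pairing. With a replicate block, 6 boundary rows rose in Y36C cells in place of 10, and 6 calls on single described junctions or boundaries were lost. The setting that cost the most single calls was the minimum change, with 18, all by its construction.

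The files give no depth, so precision is known only from the spread between samples. Sites that lost all reads in a WT E7107 sample were not tested, which left out 5 of 10 boundaries in BAK1.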
